A study of Homo sapiens with 32 samples.

Results

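The IFIT family, the interferon-induced proteins with tetratricopeptide repeats, was followed as the 4 genes IFIT1, IFIT2, IFIT3 and IFIT5, chosen by gene symbol from 60107 genes. All 4 were among the 12406 genes that passed the filter on low counts, a mean deposited normalised count of at least 10. Messenger RNA 3′ ends were sequenced in 32 libraries, 8 groups of 4, from THP-1, a monocytic line that was established from a human leukemia. The groups were WT, KO, HA and SA cells, each unstimulated or exposed for 3 h to lipopolysaccharide (LPS), the bacterial cell wall component sensed by TLR4, at 100 ng/ml by the labels. A lower concentration stands in the methods' paragraph on cell treatment. KO cells lack ATP-citrate lyase (ACLY), the enzyme that makes cytosolic acetyl-CoA from citrate. The other lines were ACLY knockout cells transduced with a lentiviral vector that expresses wild type ACLY (WT), the catalytically inactive H760A mutant (HA) or the S455A mutant, which cannot be phosphorylated at that serine (SA). All lines thus share the knockout background, and WT cells are not parental THP-1 cells. The vector drives ACLY from an EF1 promoter with puromycin selection, and whether KO cells received a vector is not stated. The labels name 1 line per genotype, so a difference between lines cannot be told apart from another difference between these lines than ACLY. They do not say whether the 4 libraries of a group came from separate cultures, and p-values measure the spread between these libraries, which may be technical.

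IFIT proteins are among the most strongly interferon-induced proteins of human cells. IFIT1 binds viral RNA whose cap lacks ribose methylation and blocks its translation, IFIT3 binds and stabilises IFIT1, IFIT2 joins the same complexes and is also linked to apoptosis, and IFIT5 binds RNA with a 5′ triphosphate end. Type I and III interferons act through JAK kinases on the complex ISGF3, which holds STAT2 and IRF9 and binds the interferon-stimulated response element (ISRE) of their target genes. IRF3, activated by TLR4 through the adaptor TICAM1, can bind the same element directly.

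The 4 genes lie on the plus strand of chromosome 10 within 137.9 kb (GRCh38, GENCODE release 44). From left to right these are IFIT2 (ENSG00000119922, chr10:89283694-89309271), IFIT3 (ENSG00000119917, chr10:89327307-89377473), IFIT1 (ENSG00000185745, chr10:89392546-89406487) and IFIT5 (ENSG00000152778, chr10:89414568-89421605). Each has 2 exons in its main transcript, and the last exon holds nearly all of it. No stretch of 75 bases is shared between the transcripts of any pair of members, and the longest shared run is 26 bases, between IFIT2 and IFIT3. IFIT1B, a related gene between IFIT3 and IFIT1, shares a run of 72 bases with IFIT1 and had 5 reads in all 32 libraries. The pseudogene IFIT6P, inside the span of IFIT3, had none, and the pseudogene IFIT1P1 on chromosome 13 had 7. LIPA, the lysosomal acid lipase gene, runs on the minus strand across IFIT2, IFIT3 and IFIT1. Since the counting is not stated to use strand, reads from a stretch where genes on opposite strands overlap cannot be told apart here. The last exon of the main LIPA transcript, chr10:89213572-89215061, lies outside the spans of the 4 members.

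**Figure D1:**
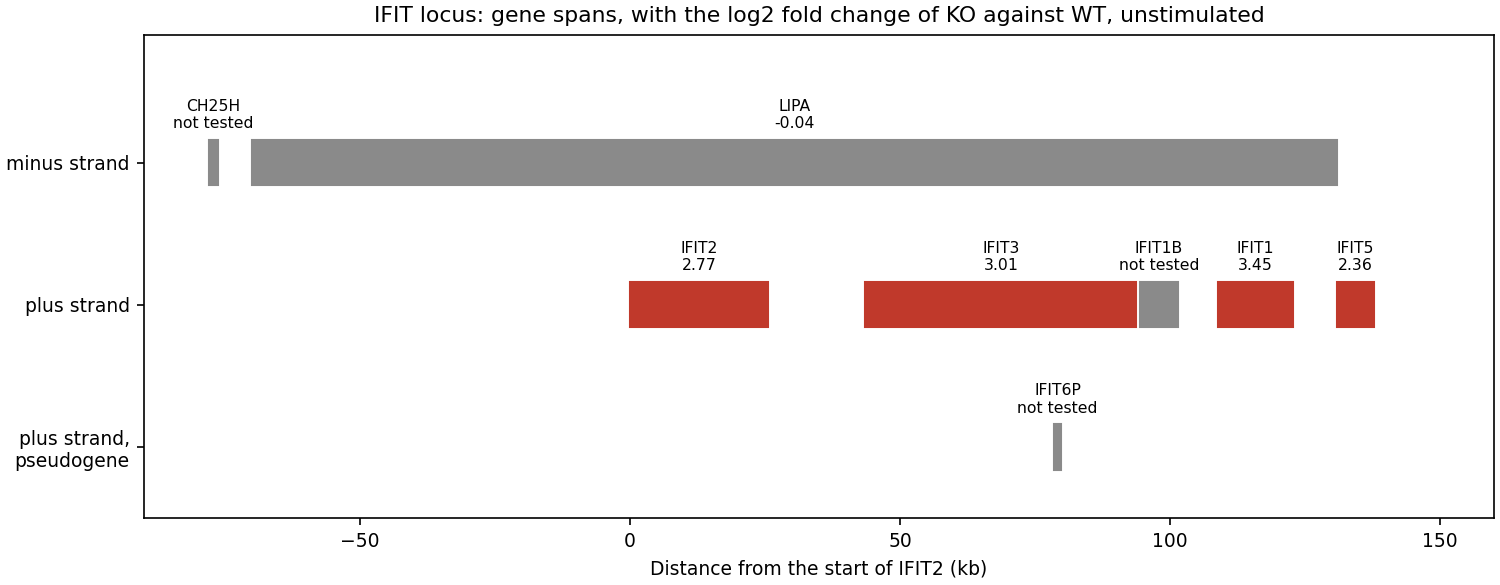
Gene spans at the IFIT locus against the distance from the start of IFIT2 in kb, with members in red and other genes in grey, by strand. The number under a name is its log2 fold change, KO against WT without LPS, which was 2.36 to 3.45 for the 4 members and -0.04 for LIPA; genes marked "not tested" did not pass the filter on low counts.

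RefSeq windows from 250 bases before to 50 after a start site (GRCh38.p14) were matched for IFIT1, IFIT3 and IFIT5, with 2 start sites for IFIT3, and for IFIT1B as the nearly silent relative. IFIT2 had no matched window and was not searched. Capitals mark each match to the core of the ISRE, GAAANNGAAA, which is read here on the other strand; both strands were searched and matches may overlap.
IFIT1, chr10:89392373-89392672, plus strand: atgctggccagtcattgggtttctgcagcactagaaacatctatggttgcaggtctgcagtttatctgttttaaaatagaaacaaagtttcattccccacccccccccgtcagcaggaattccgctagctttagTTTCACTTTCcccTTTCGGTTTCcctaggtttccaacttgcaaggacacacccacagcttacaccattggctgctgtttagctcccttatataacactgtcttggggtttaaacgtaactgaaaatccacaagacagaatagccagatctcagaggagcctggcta
IFIT3, first start site, chr10:89327747-89328046, plus strand: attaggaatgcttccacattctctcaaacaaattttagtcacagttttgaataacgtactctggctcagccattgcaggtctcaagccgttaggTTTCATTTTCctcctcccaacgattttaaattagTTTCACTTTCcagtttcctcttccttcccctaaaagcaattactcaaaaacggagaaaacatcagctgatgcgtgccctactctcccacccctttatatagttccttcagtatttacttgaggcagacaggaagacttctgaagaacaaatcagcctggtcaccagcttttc
IFIT3, second start site, chr10:89332279-89332578, plus strand: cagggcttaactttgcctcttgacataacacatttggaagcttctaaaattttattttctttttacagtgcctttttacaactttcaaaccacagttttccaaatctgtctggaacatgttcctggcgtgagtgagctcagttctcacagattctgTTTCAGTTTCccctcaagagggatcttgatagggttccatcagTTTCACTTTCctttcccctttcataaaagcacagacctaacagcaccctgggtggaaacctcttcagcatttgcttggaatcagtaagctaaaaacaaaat
IFIT5, chr10:89414318-89414617, plus strand: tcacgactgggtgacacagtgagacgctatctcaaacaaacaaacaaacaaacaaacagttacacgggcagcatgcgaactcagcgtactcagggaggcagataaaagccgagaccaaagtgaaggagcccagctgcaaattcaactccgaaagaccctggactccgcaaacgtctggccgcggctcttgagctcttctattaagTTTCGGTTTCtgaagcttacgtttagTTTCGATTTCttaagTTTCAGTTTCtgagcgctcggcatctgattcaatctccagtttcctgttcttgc
IFIT1B, chr10:89377806-89378105, plus strand: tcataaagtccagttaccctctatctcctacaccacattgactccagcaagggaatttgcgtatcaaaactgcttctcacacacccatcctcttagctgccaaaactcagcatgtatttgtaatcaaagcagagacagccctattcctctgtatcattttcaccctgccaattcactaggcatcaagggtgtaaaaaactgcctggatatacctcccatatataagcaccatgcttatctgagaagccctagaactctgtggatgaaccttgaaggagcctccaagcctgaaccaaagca
The windows of IFIT1 and of both IFIT3 start sites held 2 matches each, that of IFIT5 held 3 and that of IFIT1B held 0. Of 35116 promoters of the same length, 3.57% held at least 1 match and 0.259% held 2 or more. The 2 matches of IFIT1 began 116 and 103 bases before its start, while the 3 of IFIT5 lay closest to the start, beginning 45, 19 and 4 bases before it. The gamma-activated sequence TTCNNNGAA, present in 7.66% of promoters, had no match in these 5 windows, and TATAAA, present in 11.5%, matched once, in the first IFIT3 window. A match is a description of letters, not of bound protein.

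Levels are given as normalised counts, the reads of a library divided by a size factor set jointly over all 32 libraries. A 3′ tag is counted once per transcript end, so levels do not grow with gene length. Libraries held 6504099 to 14750815 reads on genes. The members had at least 20 reads in every library. Medians over the 32 libraries were 1322 for IFIT3, 793.5 for IFIT1, 355.5 for IFIT2 and 112.5 for IFIT5. IFIT5 also had the largest standard errors of the family in the fit of all 32 libraries. The part of read depth in this was not tested. Tests are limma fits on log2(normalised count + 1), which understates changes of low counts, with Benjamini-Hochberg adjustment over all 12406 genes and a limit of 0.01. SA LPS replicate 1 stood apart from the other SA libraries with LPS, with ACLY at 328.8 against 95.8 to 110.3 and LIPA at 31.3 against 205.5 to 280.0, and results of SA cells with LPS that it moves are given with and without it. A higher count in such bulk RNA cannot tell more expressing cells from more RNA per cell. Where all libraries of a group lay above or below those of another, the share of all genes that do so was not computed. Such separations are therefore a description of the values.

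Without LPS, all 4 members were higher in KO than in WT cells, by 5.12 to 10.9 times, and no WT library reached a KO library. IFIT1 stood at 87.3, 67.0, 109.8 and 122.5 normalised counts in WT replicates 1 to 4 and at 1209.1, 1140.1, 1146.0 and 739.6 in KO. The difference of 3.45 on the log2 scale (SE 0.32, adjusted p = 1.42e-08) was the 12th highest of all genes tested. IFIT3, the most abundant member in every group, stood at 154.6, 150.7, 206.1 and 228.4 in WT and at 1722.0, 1891.6, 1359.5 and 1076.3 in KO, a difference of 3.01 (SE 0.27, adjusted p = 5.10e-09). The lowest KO library thus lay several times above the highest WT library for these partners of one complex. IFIT2 stood at 35.8, 50.2, 71.7 and 44.6 in WT and at 235.9, 362.0, 498.7 and 310.0 in KO, a difference of 2.77 (SE 0.31, adjusted p = 3.34e-07). IFIT5 stood at 28.6, 26.0, 39.2 and 42.9 in WT and at 188.5, 236.1, 127.0 and 167.4 in KO, a difference of 2.36 (SE 0.41, adjusted p = 2.85e-04). Against this count of 4 of 4, 1.8% of all genes were higher and 1.1% lower in KO cells, and the median difference of all genes was -0.03.

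With LPS, KO cells again held the highest level of each member, and the 4 KO libraries lay above the 4 WT libraries for all of them. IFIT2 changed most: it stood at 404.0, 519.4, 712.9 and 515.1 in WT cells with LPS and at 5968.4, 5635.1, 5276.6 and 3400.9 in KO cells with LPS. That difference of 3.23 (SE 0.31, adjusted p = 2.26e-08) is 9.39-fold. IFIT3 stood at 1937.8, 2019.5, 1525.4 and 1527.0 in WT and at 8971.5, 9827.5, 6317.1 and 5928.7 in KO, 4.36-fold higher (log2 2.12, SE 0.27, adjusted p = 2.31e-06). IFIT1 stood at 740.7, 703.2, 695.3 and 570.6 in WT and at 3235.6, 4143.7, 2832.3 and 2392.3 in KO, 4.57-fold higher (log2 2.19, SE 0.32, adjusted p = 2.72e-05). The cap-binding IFIT1 and its partner IFIT3 thus differed by similar factors and IFIT2 by a larger one. IFIT5 stood at 173.6, 196.0, 76.2 and 131.5 in WT and at 563.4, 549.5, 257.0 and 358.7 in KO, 3.01-fold higher, and just missed the limit (log2 1.59, SE 0.41, adjusted p = 0.0137). The replicate numbers pair the libraries of WT and KO cells, and with the number as a block in a fit of these groups alone the same difference of IFIT5 had an adjusted p of 2.64e-06, while the block in the fit of all libraries left it at 1.13e-02. It also passed without KO LPS replicate 3, the lowest of its group (adjusted p = 7.71e-03). Of all genes, 2.14% were higher and 1.33% lower in KO cells with LPS.

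**Figure D2:**
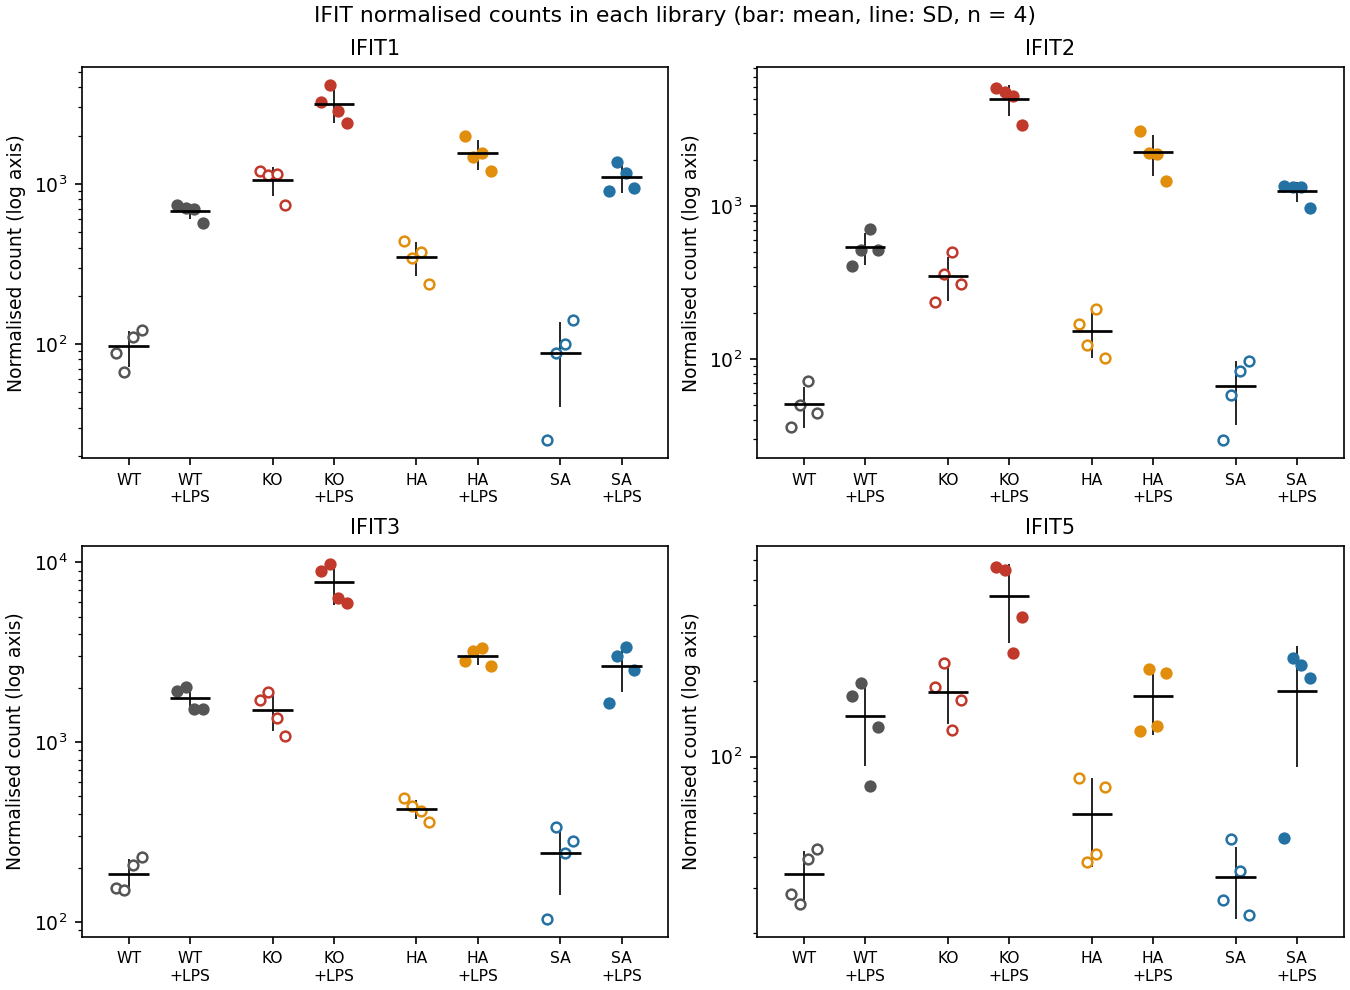
Normalised counts (log axis) of IFIT1, IFIT2, IFIT3 and IFIT5 in each of the 32 libraries, by group, open points without LPS and filled points with LPS, with the mean as a bar and the SD as a line (n = 4 per group). KO cells with LPS are highest for every member, and KO cells without LPS overlap WT cells with LPS for each of the 4.

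HA cells, which carry ACLY without catalytic activity, lay between WT and KO cells. Without LPS, 3 of the 4 members were higher in HA than in WT cells. IFIT1 stood at 439.2, 344.1, 373.9 and 238.1 in HA, 3.59-fold above WT (log2 1.84, SE 0.32, adjusted p = 5.43e-04). IFIT2 stood at 170.8, 123.0, 213.5 and 101.4, 2.94-fold above (log2 1.56, SE 0.31, adjusted p = 1.87e-03). IFIT3 stood at 487.0, 439.1, 414.0 and 361.5, 2.32-fold above (log2 1.21, SE 0.27, adjusted p = 4.78e-03). For these 3 no HA library fell into the WT range, whereas IFIT5, at 82.4, 38.3, 41.3 and 75.8, overlapped WT and did not pass (log2 0.73, SE 0.41, adjusted p = 0.262). Higher levels in HA than in WT cells were called for 1.42% of all genes and lower levels for 1.1%. The calls of IFIT2 and IFIT3 rest on single libraries: without WT replicate 1, HA replicate 1 or HA replicate 3 only IFIT1 was called, and without WT replicate 2 or HA replicate 2 IFIT3 was lost (adjusted p = 0.0249 and 0.0167).

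With LPS, only IFIT2 passed in HA cells. It stood at 3112.1, 2227.3, 2208.5 and 1457.2, 4.12-fold above WT cells with LPS (log2 2.04, SE 0.31, adjusted p = 7.94e-05). IFIT1 stood at 1996.3, 1476.5, 1556.8 and 1200.1 (log2 1.18, SE 0.32, adjusted p = 0.0327) and IFIT3 at 2834.9, 3226.8, 3353.3 and 2651.3 (log2 0.79, SE 0.27, adjusted p = 0.0985). In both, each HA library lay above each WT library although the difference missed the limit. IFIT5, at 126.4, 221.6, 131.7 and 215.2, overlapped WT (log2 0.30, 95% interval -0.53 to 1.13). Of all genes, 1.16% were higher and 0.854% lower.

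By limma, no member passed the limit between SA and WT cells. Without LPS, IFIT1 stood at 25.0, 87.5, 100.3 and 140.5, IFIT2 at 29.4, 58.0, 83.0 and 97.1, IFIT3 at 103.8, 336.6, 243.3 and 281.1, and IFIT5 at 26.9, 47.3, 35.3 and 23.6. All 4 overlapped WT, and SA replicate 1 was the lowest of its group for IFIT1, IFIT2 and IFIT3. The differences had 95% intervals of -0.99 to 0.33 for IFIT1, -0.32 to 0.94 for IFIT2, -0.26 to 0.82 for IFIT3 and -0.89 to 0.77 for IFIT5, and their upper bounds lie below each member's difference in KO cells. Without SA replicate 1 the difference of IFIT1 turned from -0.33 to 0.19 and that of IFIT3 went from 0.28 to 0.64, with no call. With LPS, IFIT2 stood at 1355.7, 1345.2, 1338.8 and 978.2, with every SA library above every WT library. The difference of 1.24 (SE 0.31) had the 4th smallest p of all genes, but an adjusted p of 0.825, and over the alternatives this ranged from 0.0317 to 1.00. It was 1.195 without SA LPS replicate 1. IFIT1 also lay apart from WT, at 906.5, 1372.1, 1171.6 and 945.7 (log2 0.68, 95% interval 0.02 to 1.34, adjusted p = 0.825). IFIT3, at 1648.6, 3025.5, 3372.0 and 2513.8, and IFIT5, at 47.5, 245.3, 231.1 and 205.2, overlapped WT through SA LPS replicate 1 alone. Without that library the differences were 0.76 for IFIT3, 0.73 for IFIT5 and 0.77 for IFIT1, against 0.55, 0.17 and 0.68 with it, and none was called. No gene was called between SA and WT cells by limma, so 0.0% of all genes were higher without LPS and 0.0% with LPS. At an unadjusted p under 0.05 there were 445 genes without LPS and 646 with LPS, and voom on recovered reads called none of the 4 members either.

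**Figure D3:**
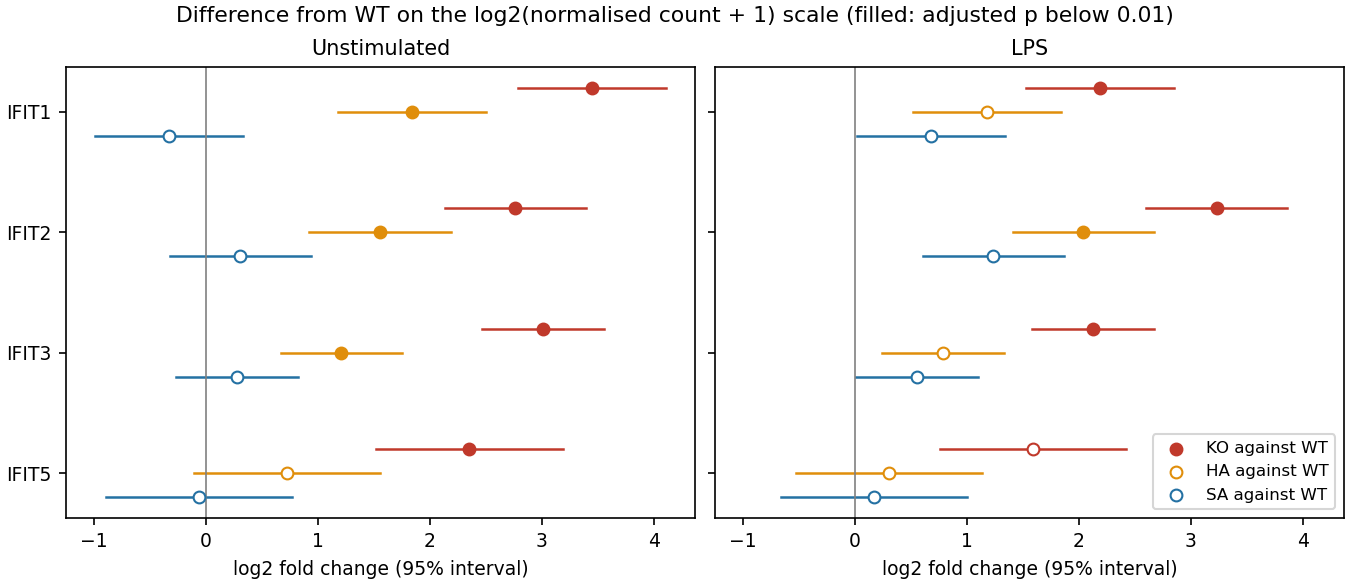
Log2 fold change of each member in KO, HA and SA cells against WT cells, without LPS (left) and with LPS (right), as a point with its 95% interval; filled points passed an adjusted p of 0.01. KO lies furthest to the right for every member, followed by HA and SA, with the SA intervals of unstimulated cells crossing 0.

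The lines were also compared with each other directly. Without LPS, every KO library lay above every HA library for all 4 members, by 2.31 to 3.49 times, but IFIT3 alone passed (log2 1.80, SE 0.27, adjusted p = 3.92e-04), while IFIT1 missed the limit narrowly (log2 1.61, SE 0.32, adjusted p = 0.0117). Of all genes, 0.202% were higher in KO than in HA cells. With LPS, KO libraries were again above HA libraries for all 4, by 2.01 to 2.52 times, and none passed, the nearest being IFIT3 (adjusted p = 0.0264), in a comparison where 0.00806% of genes, a single gene, passed. At an unadjusted p under 0.05 that comparison held 1308 genes, and voom on recovered reads called IFIT3. Compared with SA cells, all 4 members were higher in KO cells without LPS, by 5.33 to 13.7 times (1.61% of all genes), and IFIT1, IFIT2 and IFIT3 with LPS, by 2.85 to 3.98 times (1.77%). IFIT5 was 2.67-fold higher there (log2 1.41, adjusted p = 0.0325), and the difference was 0.86 without SA LPS replicate 1. With LPS the call of IFIT1 was lost without KO LPS replicate 1 or 2 or SA LPS replicate 1 or 4 (adjusted p from 0.0114 to 0.0195), and on the deposited scale (log2 1.14, adjusted p = 0.0132). HA cells exceeded SA cells in IFIT1 without LPS (4.51-fold, adjusted p = 7.41e-05, 0.725% of all genes) and in no member with LPS (1.06%). Without SA replicate 4 a second member, IFIT2, passed in the former. In that last comparison IFIT2 came nearest, 1.75-fold higher with no overlap of libraries (adjusted p = 0.130), and voom called none of the members. IFIT1, IFIT3 and IFIT5 overlapped there, and the difference of IFIT5, 0.13, was -0.43 without SA LPS replicate 1.

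In each line all 4 libraries with LPS lay above all 4 without for every member, and 13 of the 16 responses passed the limit, all but those of IFIT5 in WT, KO and HA cells. IFIT2 had the largest response in each of the 4 lines and IFIT5 the smallest. In WT cells the rise was 10.6-fold for IFIT2 (log2 3.40, SE 0.31, adjusted p = 4.72e-08), 9.50-fold for IFIT3 (log2 3.25, SE 0.27, adjusted p = 1.15e-08) and 7.09-fold for IFIT1 (log2 2.83, SE 0.32, adjusted p = 2.33e-06). IFIT3 and IFIT2 had the smallest and second smallest p of all genes in WT cells, where 0.25% of genes rose. IFIT5 was 3.98-fold higher (log2 1.99, SE 0.41, adjusted p = 0.0134, and 2.72e-05 with the replicate block in WT cells alone, 1.13e-02 with it in all libraries), and without WT LPS replicate 3, its lowest library at 76.2, it passed (adjusted p = 7.64e-03).

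KO cells started from a higher level and still responded. IFIT2 rose 14.6-fold (log2 3.87, SE 0.31, adjusted p = 1.68e-09), IFIT3 5.13-fold (log2 2.36, SE 0.27, adjusted p = 1.25e-06) and IFIT1 2.97-fold (log2 1.57, SE 0.32, adjusted p = 7.25e-03). The response of IFIT1 lies near the limit in the fit without a block. There it was not called without any single KO library or without KO LPS replicate 1, 2 or 3 (adjusted p from 0.0149 to 0.0531). With the replicate block its adjusted p was 4.83e-05 in KO cells alone and 9.79e-03 in all libraries. IFIT5 was 2.34-fold higher (adjusted p = 0.282, and 1.31e-03 with the replicate block in KO cells alone, 0.247 with it in all libraries). Of all genes 0.508% rose.

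In HA cells IFIT2 rose 14.8-fold (log2 3.89, SE 0.31), IFIT3 7.09-fold (log2 2.82, SE 0.27) and IFIT1 4.49-fold (log2 2.17, SE 0.32), with adjusted p of 2.96e-09, 7.33e-08 and 1.43e-04, where 0.387% of genes rose. IFIT5 was 2.96-fold higher (adjusted p = 0.0836). SA cells were the only line in which all 4 members passed, with 0.468% of genes rising. IFIT2 rose 20.1-fold, IFIT1 14.3-fold and IFIT3 11.5-fold (adjusted p from 4.39e-10 to 4.61e-09), and IFIT5 4.67-fold (log2 2.22, SE 0.41, adjusted p = 2.12e-03). In SA cells the response of IFIT5 depended on the libraries. It was not called without SA replicate 1 or 4 or SA LPS replicate 2, 3 or 4 (adjusted p from 0.0128 to 0.0172), and it grew to 2.78 (adjusted p = 4.57e-06) without SA LPS replicate 1, where IFIT5 had 47.5 against 205.2 to 245.3 in the other SA libraries with LPS.

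**Figure D4:**
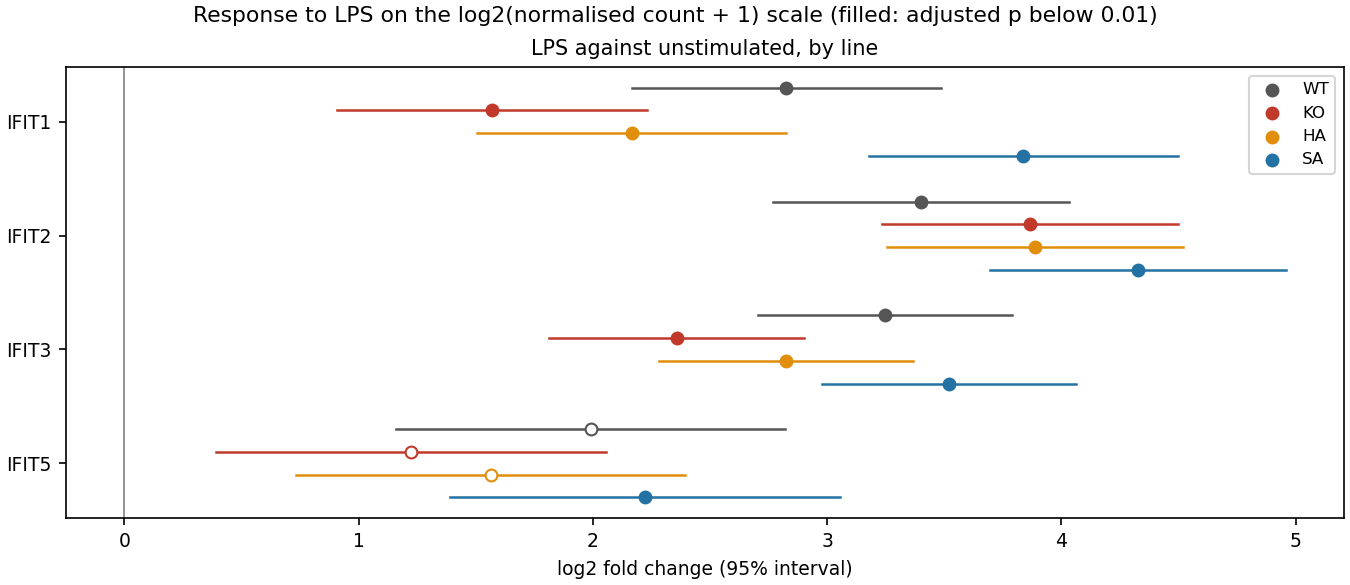
Log2 fold change of each member with LPS against without LPS in WT, KO, HA and SA cells, with 95% intervals; filled points passed an adjusted p of 0.01. IFIT2 responded most in every line, from 3.40 in WT to 4.33 in SA, and the IFIT1 response ran from 1.57 in KO to 3.84 in SA.

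The test of the difference between responses passed for no member. The response in KO minus that in WT cells was -1.26 on the log2 scale for IFIT1 (95% interval -2.19 to -0.32), and the difference for IFIT3 was -0.89 (-1.66 to -0.12). For IFIT2 it was 0.47 (-0.43 to 1.36) and for IFIT5 -0.77 (-1.94 to 0.41). All adjusted p were 1.00, in a comparison where 0.00806% of genes passed and 175 had an unadjusted p under 0.05. In the fit of these 4 groups alone with the replicate block, the difference of IFIT1 had an adjusted p of 0.0731 and that of IFIT3 of 0.314. The differences from WT of the response in HA cells ran from -0.66 for IFIT1 to 0.49 for IFIT2, with 0.0% of genes called by limma and 142 at an unadjusted p under 0.05. In SA cells they ran from 0.23 for IFIT5 to 1.01 for IFIT1, with IFIT2 at 0.93. Without SA replicate 1 the values of IFIT1 and IFIT2 were 0.50 and 0.58. By limma 0.0% of genes were called, and 457 had an unadjusted p under 0.05. No member was called by voom in these 3 comparisons.

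Over the 8 groups the means spanned a factor of 100 for IFIT2, 42.0 for IFIT3, 35.7 for IFIT1 and 13.0 for IFIT5. IFIT2 rose in the order WT, SA, HA, KO, WT with LPS, SA with LPS, HA with LPS and KO with LPS, from 50.6 ± 15.3 to 5070 ± 1148 (mean ± SD, n = 4). Of its neighbours, WT and SA overlapped and so did KO and WT with LPS, and the others were separate. IFIT3 followed the same order, from 184.9 ± 38.4 to 7761 ± 1930, with overlap also between WT and SA cells with LPS and between SA and HA cells with LPS, while HA and WT cells with LPS were separate. IFIT1 began with SA at 88.3 ± 47.9 and WT at 96.6 ± 24.6, which overlapped, and its KO cells at 1059 ± 215 overlapped both WT cells with LPS at 677 ± 74.0 and SA cells with LPS at 1099 ± 216. IFIT1 ended at 3151 ± 746. IFIT5 ran from 33.3 ± 10.6 in SA cells to 432 ± 150 in KO cells with LPS, and every neighbour overlapped except the last step. KO cells with LPS were thus separate at the top for all 4 members, while WT and SA cells without LPS overlapped at the bottom for all 4. Whether the steps between were separate depended on the member.

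The share of each member in the family was computed within each library. IFIT3 made up 43.5% to 56.1% of the family's normalised counts, as means of the 8 groups, and IFIT5 2.59% to 9.29%. IFIT2 was 11.6% ± 3.91 (SD, n = 4) of the family in KO cells and 31.0% ± 3.76 in KO cells with LPS, while IFIT1 was 34.1% ± 2.62 and 19.2% ± 1.41. Within a library, the ratio of IFIT2 to IFIT1 counts lay between 0.195 and 0.435 in KO cells and between 1.36 and 1.86 after LPS. In HA cells it lay between 0.357 and 0.571 and, after LPS, between 1.21 and 1.56. IFIT2 thus passed IFIT1 in each of these LPS libraries and in none of the unstimulated ones of the same lines. In WT cells the ratio was 0.364 to 0.750 without and 0.545 to 1.03 with LPS, which overlap. In SA cells it was 0.6633 to 1.175 without and 0.9803 to 1.4955 with LPS, which overlap too. IFIT2 also exceeded IFIT1 in SA LPS replicates 1, 3 and 4, in WT LPS replicate 3 and in unstimulated SA replicate 1. A ratio above 1 was therefore not limited to KO and HA cells. In log2 units the shift was 2.30 for KO cells, 1.72 for the HA line, 0.57 for WT and 0.49 for SA. By a two-sided exact permutation test on the log2 ratios, p was 0.0286 in KO and HA cells, the smallest that 4 against 4 libraries allow, and 0.171 and 0.114 in WT and SA cells. With adjustment over 30 such tests (3 ratios, 10 comparisons) the smallest value was 0.0857. No ratio could have passed the limit, since the smallest possible p, 0.0286, lies above it even before adjustment. The tests therefore cannot decide whether a ratio differed, and the separations in KO and HA cells are a description of the values. These ratios were chosen after the values were seen.

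**Figure D5:**
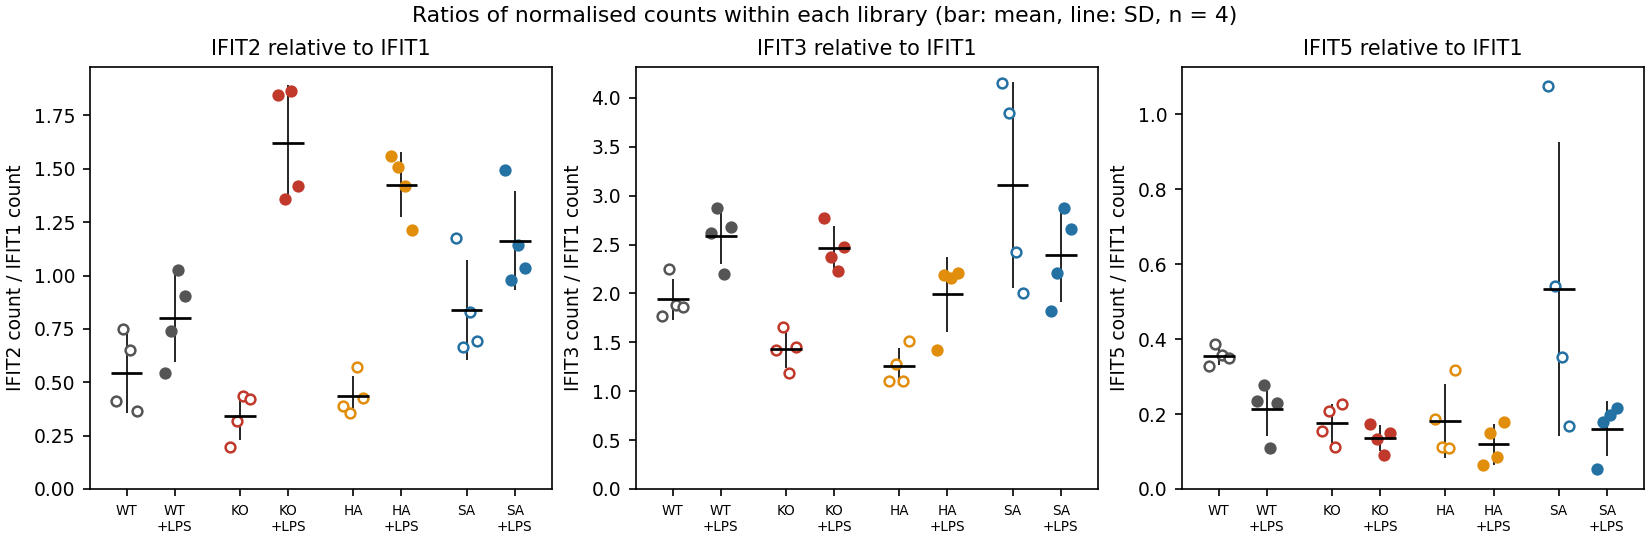
Ratio of IFIT2, IFIT3 and IFIT5 normalised counts to the IFIT1 count of the same library, by group, open points without LPS and filled points with LPS, with mean and SD (n = 4). IFIT2 exceeds IFIT1 in all KO and HA libraries with LPS (1.21 to 1.86) and stays below it in those without LPS (0.195 to 0.571). The ranges with and without LPS overlap in SA cells (0.9803 to 1.4955 and 0.6633 to 1.175) and in WT cells (0.5455 to 1.0253 and 0.3643 to 0.75).

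Within groups, the deviations of log2 levels from the group mean, over 32 libraries, correlated at r = 0.83 between IFIT1 and IFIT3, 0.70 between IFIT1 and IFIT2, 0.58 between IFIT3 and IFIT5 and 0.42 between IFIT2 and IFIT3, but at 0.18 between IFIT1 and IFIT5 and -0.18 between IFIT2 and IFIT5. These values share library preparation and depth and are given without a test. IFIT5 and IFIT2 parted in replicate 3 of the WT and KO lines: IFIT2 was highest of its group there in WT, WT LPS and KO, while IFIT5 was lowest in WT LPS, KO and KO LPS. Over the 8 group means the members correlated at 0.94 to 0.98.

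The 10 genes whose group means were most like the mean log2 level of the family were CXCL10, OASL, DDX58, RIN2, BATF2, ICAM1, CCL3, CCL4, RTP4 and GBP5, with r from 0.98 to 0.995 over 8 group means, given as a description. CXCL10, a chemokine that attracts T cells, was at 108.2 in WT, 1512 in WT with LPS, 1259 in KO and 14950 in KO with LPS. OASL, an antiviral protein of the oligoadenylate synthetase family, was at 48.9, 293 and 219 in the first 3 of these groups and at 852 in KO cells with LPS. DDX58 encodes RIG-I, the sensor of viral RNA.

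Of the listed ligands that could act upstream, most gave no reads, and the only IFNA genes listed were IFNA1 and IFNA2. In the list of 10 interferon genes, IFNA1, IFNA2, IFNE, IFNG, IFNK and IFNW1 were at 0 in all 32 libraries. IFNL1, a type III interferon, was the only one to pass the filter on low counts. It had 0 reads in every WT library and 19.2, 25.4, 5.4 and 21.2 normalised counts in KO, at least 23.3-fold higher when 3 reads over the WT group are taken as the limit. With LPS it was at 0.0, 5.2, 1.2 and 4.0 in WT and at 81.8, 135.6, 38.3 and 63.4 in KO. IFNL1 passed the filter on low counts only through its level in KO cells, so these values are a description, with no test. HA cells had 3.1, 3.2, 1.2 and 12.3 without LPS. IFNL1 thus was found in every KO and HA library and in no WT library without LPS. IFNB1, the type I interferon that TLR4 induces through IRF3, had 129 reads in all, too few to pass the filter, of which 121 came from KO cells with LPS. Those 4 libraries held 46, 70, 0 and 5 IFNB1 reads in replicates 1 to 4. In the same libraries all 4 members were higher in replicates 1 and 2 than in replicates 3 and 4. For IFIT2 replicates 2 and 3 lay close, at 5635.1 and 5276.6, and replicate 4 was lowest. A link of these levels to IFNB1 was not tested. IFNL2 and IFNL3, near-identical copies, had 5 and 2 reads.

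Of 9 receptors and kinases, 8 were tested and JAK2 alone was higher in KO cells, both without LPS (log2 0.85, SE 0.17, adjusted p = 1.17e-03) and with it (log2 1.12, SE 0.17, adjusted p = 2.87e-05). None passed in HA cells. The receptor of type III interferon, IFNLR1, had no reads. The type I receptor chain IFNAR1 stood at means of 741 to 994 in the 8 groups, and IFNGR1 had a log2 difference of 0.50 in KO cells (SE 0.91, adjusted p = 0.925).

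Of the factors that act on the ISRE, STAT2, a subunit of ISGF3, differed between KO and WT cells by 1.64 on the log2 scale without LPS (adjusted p = 2.38e-04) and by 1.10 with LPS (adjusted p = 0.0127). IRF9, which joins it there, was low, at 10.2 in WT and 30.3 in KO cells without LPS, and did not pass (adjusted p = 0.393). IRF7, the factor that amplifies interferon production, differed by 1.93 without LPS (SE 0.42, adjusted p = 3.30e-03) and by 1.57 with LPS (adjusted p = 0.0179). IRF1 differed by 0.84 (adjusted p = 2.13e-03) and 1.75 (adjusted p = 5.18e-08), and IRF2 by 0.72 (adjusted p = 0.0158) and 1.28 (adjusted p = 1.84e-05). IRF3, IRF5 and IRF8 passed in neither, with IRF3 at 278 in WT and 305 in KO cells. In HA cells STAT2 was higher without LPS, and IRF1 and IRF2 with LPS. In SA cells none of these passed against WT. LPS raised IRF1 in each of the 4 lines and IRF2 in KO cells.

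Of 30 other antiviral genes, all tested, 27 were higher in KO cells without LPS and 28 with LPS, and 16 and 13 in HA cells, with none lower. In fits of the compared groups alone the HA counts were 10 and 7. The median of the 30 differences from WT was 2.06 and 1.74 in KO cells and 1.03 and 0.94 in HA cells, where that of all genes lay between -0.03 and -0.01. In KO cells with LPS the largest were IFI44L, an interferon target (log2 2.80, SE 0.20, adjusted p = 1.87e-10) and TRIM22, an antiviral ubiquitin ligase (log2 2.54, SE 0.33, adjusted p = 4.69e-06). In response to LPS, OASL alone passed in WT cells, OASL and ZC3HAV1 in KO cells, 4 genes in HA cells and 8 in SA cells. With the replicate block in WT cells alone 18 passed, and in a fit of the SA groups alone 0 did, where limma over all libraries called 8. The median response of the list was 0.64 in WT cells, against 3.04 for the 4 members. Of 7 sensors of nucleic acids, IFIH1, DDX58 and EIF2AK2 were higher in KO cells without LPS, joined by CGAS with LPS. IFIH1, the sensor MDA5, differed by 2.05 and 2.00 (adjusted p = 3.24e-07 and 5.55e-07). DHX58, the regulator LGP2, had 2.09 in both (adjusted p = 0.0655 and 0.0551).

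Of 9 genes of the TLR4 arm, 8 were tested. CD14, the LPS co-receptor, was higher in KO cells without LPS and lower in HA than in WT cells with LPS, and LPS lowered it in KO, HA and SA cells. MYD88 and TICAM1, the adaptors of the 2 TLR4 branches, differed by 1.35 (SE 0.88) and 0.90 (SE 0.78) in KO cells with LPS and did not pass. Of the 4 negative regulators, USP18, which restrains the type I receptor, was higher in KO cells without LPS. With LPS none of the 4 passed in KO cells. SOCS3, which like SOCS1 blocks JAK signalling, differed by 2.81 (SE 1.32, adjusted p = 0.263) with LPS. SOCS1 had means of 156.0 in KO cells with LPS, 13.1 in WT cells with LPS and at most 22.1 in the other groups. SOCS1 passed the filter on low counts only through KO cells with LPS, so its means are a description and no conclusion is drawn from its test. Of 7 NF-kB targets, 3 were higher in KO cells without LPS (TNF, CCL3 and CCL4) and 4 with LPS (also IL1B). The chemokines CCL3 and CCL4 differed by 3.09 and 2.98 with LPS (adjusted p = 1.37e-05 and 3.50e-04).

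Of 9 neighbours, LIPA, PANK1 and KIF20B were tested and none passed in any line against WT cells or in the LPS response of any of the 4 lines. LIPA, whose annotated start lies next to that of IFIT5 on the other strand, had log2 differences of -0.04 (SE 0.42) and 0.24 (SE 0.42) in KO cells without and with LPS, and KIF20B of -0.02 (SE 0.16) and 0.19 (SE 0.16). PANK1 had -0.21 and -0.02 (SE 0.28 in both). STAMBPL1, ACTA2, FAS, CH25H, IFIT1B and SLC16A12 had 196, 9, 82, 73, 5 and 3 reads in all libraries together and were not tested. CH25H, itself an interferon target, had means of 11.4 in KO cells with LPS and at most 3.38 in the other groups, and FAS of 12.2 and at most 2.85.

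Facts of the libraries bear on these values. ACLY 3′ counts were 88.5 in KO and 101.6 in WT cells (adjusted p = 0.884), but a 3′ tag need not fall on the disrupted part and the vector carried the coding sequence, so this checks nothing about the labels. All 10 monocytic markers were tested in these libraries. Without LPS their summed level lay between 16812.0 and 19726.0 in WT libraries, between 26016.3 and 40109.7 in KO, between 25018.1 and 33427.6 in HA and between 16203.9 and 17497.5 in SA libraries. With LPS it was 15231.4 to 18555.2, 27182.4 to 44287.6, 24320.7 to 31550.8 and 13077.6 to 17653.5 in the same order. Without LPS CD14, LYZ and FCER1G were higher in KO than in WT cells, and LYZ, lysozyme, in HA cells. With LPS LYZ was higher and CD33 lower in KO cells, and LYZ was higher and CD14 and ITGAM lower in HA cells. Most of the difference in the sum was LYZ, at means of 4851 in WT, 18560 in KO and 14954 in HA cells without LPS. The median log2 difference of the 10 markers from WT was 0.264 in KO and 0.112 in HA cells without LPS. It was 0.051 and 0.131 with LPS. Of 9 markers of other cells, 2 were tested, CD3E and COL1A2 were at 0, and the sum was 2374.6 to 3338.1 in WT and SA and 3947.4 to 6169.3 in KO and HA libraries without LPS, most of it PECAM1. With LPS it was 2248.6 to 4341.5 and 3562.1 to 6343.8. PECAM1 had reads in all 32 libraries, at group means from 2519 to 4955. The sum thus follows this gene and is no measure of other cells. The part of these marker differences in the IFIT results was not tested.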

How the data were processed

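The authors prepared 32 QuantSeq 3′ mRNA libraries (Lexogen), trimmed reads with Bbduk, aligned them with STAR to GRCh38, counted them with HTSeq-count and normalised with DESeq2; per the labels bcl2fastq was also used. Tool versions, annotation release and the strand setting of counting are not given in the sources used here. The deposited values are other than plain counts: each is a read count that the authors divided by a size factor set within 1 line of 8 libraries, written with a decimal comma, as a test on the values showed. Multiplied back, 100.0% of values were whole reads within 0.05. These were rescaled with median-of-ratios factors over all 32 libraries, because the deposited scales of KO, HA and SA were shifted from WT by -0.096, 0.152 and 0.265 log2 units.

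Genes with a mean deposited normalised count of at least 10 were tested (12406 of 60107; 92 spike-in rows left out). limma 3.58.1 (R 4.3.3) was fitted to log2(count + 1) with 8 group means in one model, mean-variance trend and Benjamini-Hochberg adjustment over all genes tested, limit 0.01, in 19 comparisons. Comparisons with WT share the WT libraries, and LPS responses share libraries with the line comparisons. Within-library ratios were tested by two-sided exact permutation. The scripts were tested on simulated data. Reads per library, 6504099 to 14750815 (median 10247620), set the precision of low genes, and limits from a count of 0 cover counting error only. Gene models are GENCODE release 44 and promoters RefSeq; no promoter of IFIT2 was matched.

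The labels give replicate numbers 1 to 4 in each group. In WT and KO cells, with and without LPS, same-numbered libraries deviated together (every correlation of deviations over genes above 0.1, the smallest 0.124), so values with the number as a block are given there. In comparisons with HA or SA cells this did not hold.

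The members and the 11 gene lists were chosen with earlier results of these data known. By the rule for names, the members, ACLY, related IFIT genes, the tested ligands, STAT and IRF factors and locus neighbours, members at 0, the 2 genes of each list with the largest difference between KO and WT cells with LPS, and the 10 genes most like the family are named; others named were chosen after their values were seen. One factor of these lists is not reported here. Alternatives (42, of which 32 leave out 1 library) varied the scale, pseudocount, filter, model and block.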

Additional observations from a re-analysis of the deposited data

Results flagged for a closer look

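In 2 of 32 tests of a group's most distant library, over 4 members and 8 groups of 4, the gap to the nearest library as a share of the group's range exceeded Dixon's 95% critical value. IFIT1 in KO replicate 4 was at 739.61 normalised counts, below the other KO libraries at 1140.06 to 1209.15. IFIT2 in SA LPS replicate 4 was at 978.16, below the other SA libraries with LPS at 1338.80 to 1355.69. Chance flags about 1 in 20 groups.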

How the results depend on the processing

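Of 1464 member differences recomputed under alternatives, 1385 kept their direction and side of the limit, 53 lost a call, 13 gained one and 13 turned sign. None of the 33 called changes turned sign, and no ratio moved beyond its spread. The number of members called changed by over 1.5 times as follows. It was 2 for KO against HA unstimulated with a pseudocount of 5. With voom, chosen after seeing the data, it was 1 for HA against WT unstimulated, 2 for it with LPS, 2 for KO against HA unstimulated and 1 with LPS. In fits of the compared groups alone it was 2 for HA against WT with LPS, 0 for KO against HA unstimulated, 1 for KO against SA with LPS, 0 for HA against SA unstimulated and 1 for the LPS response in SA. The cause was not tested, but fits of groups alone have fewer libraries for the spread.

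The replicate block gave 2 for HA against SA unstimulated in all libraries. In fits of the compared groups alone with the block, where numbers do not pair the libraries, it gave 0 for HA against WT unstimulated and with LPS, 0 for KO against HA unstimulated, 0 for KO against SA unstimulated and with LPS, and 1 for the LPS response in SA. Where the numbers pair WT and KO libraries, the block changed calls of IFIT5 alone.

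Leaving out 1 library gave 1 to 3 members for HA against WT unstimulated and 1 to 2 for HA against SA unstimulated. Among uncalled differences that turned sign, IFIT5 in SA against WT unstimulated was 0.1969 on the deposited scale and -0.2381 to 0.0869 without single libraries. Without single libraries, IFIT1 in the same comparison was -0.6291 to 0.1853, IFIT5 in SA against WT with LPS -0.1009 to 0.7325 and in HA against SA with LPS -0.4302 to 0.3515. The response in SA minus WT was -0.0883 to 0.4826 for IFIT3 and -0.0443 to 0.7891 for IFIT5. The planned edgeR and DESeq2 alternatives were not run, and voom on the recovered reads was fitted in their place. IFIT5 had the fewest reads of the members, with 20 in its lowest library, and the part of depth in its spread was not tested.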
